A study of Mus musculus with 21 samples.

Results

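The 8 genes described here encode the nuclear factors that set up the red blood cell programme: Gata1, Klf1, Nfe2, Gfi1b, Zfpm1, Ldb1, Myb and Cbfa2t3. They were taken by name as 8 of the 30733 rows of a table of raw read counts from mouse bone marrow, and all 8 are in the table. The study measured RNA in 3 sorted progenitor populations from mice in which Stag2, which encodes one of the subunits of cohesin, the ring that shapes chromosome loops, had been knocked out (KO), and from wild-type (WT) mice. The groups were LSK KO (n = 3) and LSK WT (n = 4), GMP KO (n = 4) and GMP WT (n = 3), and, for CFU-E, KO (n = 4) and WT (n = 3). The LSK gate holds stem and multipotent progenitors. GMP give rise to granulocytes and monocytes, while CFU-E are committed to the erythroid line. All 21 libraries came from marrow depleted of lineage-marked cells on magnetic beads and then sorted. The sources used here do not give the strain, the age of the mice or the way in which Stag2 was deleted. Replicates are numbered in the labels, which do not say whether each is its own animal. A p-value therefore reflects the scatter among these libraries, which may be technical.

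In erythroid progenitors GATA1 binds GATA sequences, often beside TAL1 at E-box sequences (CANNTG), and the adaptor LDB1 holds the complex together and brings distant enhancers to promoters. ZFPM1 (FOG-1) is the cofactor that GATA1 contacts directly, and KLF1 binds CACCC boxes of globin, membrane and cell cycle genes. GFI1B and CBFA2T3 (ETO2) bring repressors to many of the same sites. NFE2 pairs with small MAF proteins and serves both globin genes and platelet formation, while MYB keeps progenitors dividing and is shut down as red cells mature. GATA1, ZFPM1, NFE2 and GFI1B also act in megakaryocytes, the platelet-forming relatives of CFU-E.

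Promoters are shown for the 4 genes whose RNA differed most between CFU-E and GMP, and for Myb, whose RNA was abundant in both. Each is the 250 bases before the RefSeq gene start, on the gene's strand, 5′ to 3′, from build GRCm38.p6. They lie at chrX:7967911-7968160, minus strand, for Gata1, at chr8:84901732-84901981, plus strand, for Klf1, at chr2:28621983-28622232, minus strand, for Gfi1b, at chr8:122281891-122282140, plus strand, for Zfpm1, and at chr10:21160985-21161234, minus strand, for Myb. Capitals mark GATAA or CACCC, on either strand, so TTATC and GGGTG are the same motifs read from the other strand.
Gata1: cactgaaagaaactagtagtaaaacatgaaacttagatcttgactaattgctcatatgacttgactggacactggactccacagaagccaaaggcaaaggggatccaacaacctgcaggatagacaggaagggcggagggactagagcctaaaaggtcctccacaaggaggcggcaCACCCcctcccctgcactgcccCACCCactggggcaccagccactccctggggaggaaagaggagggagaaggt
Klf1: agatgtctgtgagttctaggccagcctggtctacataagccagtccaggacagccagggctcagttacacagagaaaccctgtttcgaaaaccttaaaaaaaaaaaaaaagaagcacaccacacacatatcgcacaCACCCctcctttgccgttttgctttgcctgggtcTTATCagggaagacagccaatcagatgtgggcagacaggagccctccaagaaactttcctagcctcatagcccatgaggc
Gfi1b: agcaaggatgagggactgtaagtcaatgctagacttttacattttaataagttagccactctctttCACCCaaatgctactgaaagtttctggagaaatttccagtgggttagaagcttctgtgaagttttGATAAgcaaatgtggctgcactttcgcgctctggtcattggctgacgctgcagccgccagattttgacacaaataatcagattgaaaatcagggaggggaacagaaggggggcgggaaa
Zfpm1: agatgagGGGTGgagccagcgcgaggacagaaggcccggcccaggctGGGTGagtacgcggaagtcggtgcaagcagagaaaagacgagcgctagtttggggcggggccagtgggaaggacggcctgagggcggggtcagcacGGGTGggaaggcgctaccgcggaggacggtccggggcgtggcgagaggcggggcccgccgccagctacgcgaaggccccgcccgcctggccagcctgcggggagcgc
Myb: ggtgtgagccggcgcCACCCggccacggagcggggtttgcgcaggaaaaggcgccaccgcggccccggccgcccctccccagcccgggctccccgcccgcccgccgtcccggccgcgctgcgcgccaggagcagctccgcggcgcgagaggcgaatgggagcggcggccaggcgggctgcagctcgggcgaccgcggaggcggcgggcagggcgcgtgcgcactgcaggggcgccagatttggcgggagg

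The Klf1 window held 1 GATAA match that began 80 bases before the start and 1 CACCC match at 114 bases. The Gfi1b window held 1 GATAA match at 119 bases and 1 CACCC match at 184 bases. Gata1 had 2 CACCC matches, at 74 and 52 bases, Zfpm1 had 3, at 243, 203 and 107 bases, and Myb had 1, at 235 bases. None of these 3 windows held GATAA. RefSeq windows were matched for 7 of the 8 members, 10 windows in all, and Nfe2 was not matched. GATAA was found for 4 of the 7 genes (Klf1, Gfi1b, and 1 window each of Ldb1 and Cbfa2t3), CACCC for 7 and CANNTG for 5. By window, GATAA was in 4 of the 10, CACCC in 10 and CANNTG in 6. Of all 32851 windows of this length, 22.6% held GATAA, 52% held CACCC and 66.2% held CANNTG. A single Gfi1b motif match overlapped a CANNTG match, and no GATAA match overlapped a CACCC match. These matches describe letters, not bound sites.

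Libraries differed in kit and depth, and the LSK libraries differed in the sex of the mice from those of GMP and CFU-E. SMARTer amplification of whole transcripts was used for LSK, whose libraries held 22813333 to 32196233 counts. For GMP and CFU-E, transcript 3′ ends were read after SMART-Seq2 amplification, with 1250683 to 4401993 counts in GMP and 3654667 to 5550165 in CFU-E. LSK levels are therefore not set against the other 2 populations. Levels are counts divided by library size (CPM), scaled with TMM factors, within a population for KO against WT and over the 6 WT libraries for CFU-E against GMP. Stag2 itself was 67.8 to 79.9 CPM in LSK KO, against 148 to 187 CPM in LSK WT, and 41.3 to 75.8 CPM in CFU-E KO, against 125.1 to 159.9 CPM in CFU-E WT. In GMP it was 94.4, 98.7, 80.9 and 150.2 CPM in KO 1 to 4, against 200.4, 143.1 and 98.3 CPM in WT 1 to 3. Stag2 RNA in the library labelled GMP KO 4 thus exceeded that in 2 WT libraries, and its change in GMP did not pass the test (log2 fold change −0.47 ± 0.271 SE, adjusted p = 0.36 with edgeR). Stag2 was read at transcript 3′ ends in GMP and CFU-E alike, and where these tags lie relative to the deleted part was not tested. GMP KO 4 also correlated least with its own group (mean r 0.938 across genes), and GMP KO 1 was the shallowest library. Directions in GMP rest on these labels.

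Marker genes were summed in each sorted population. In LSK the 10 stem and multipotent progenitor markers summed to 2442 to 3082 CPM in KO and 2236 to 2780 CPM in WT. The granulocyte and monocyte markers summed to more there, at 5956 to 16460 CPM in LSK KO and 11040 to 19000 CPM in LSK WT. The GMP and CFU-E libraries carried their own markers. The summed level of 13 erythroid markers was 7845 to 8400 CPM in CFU-E KO and 6998 to 7791 CPM in CFU-E WT, against 206 to 291 CPM in GMP KO and 210 to 261 CPM in GMP WT. The 11 granulocyte and monocyte markers summed to 37.0 to 157.8 CPM in CFU-E KO and 64.9 to 138.9 CPM in CFU-E WT, against 22700 to 46420 CPM in GMP KO and 33660 to 55230 CPM in GMP WT. The 11 mast cell, basophil and eosinophil markers summed to 7.45 to 18.5 CPM in CFU-E KO and 8.39 to 12.4 CPM in CFU-E WT. There, 3 of them were at 0 in every KO library and 3 in every WT library. In GMP these 11 markers summed to 3239 to 4902 CPM in KO and 2201 to 5054 CPM in WT. The GMP libraries thus also held RNA of these lineages, and its part in the GMP values of the 8 genes was not tested.

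**Figure D1:**
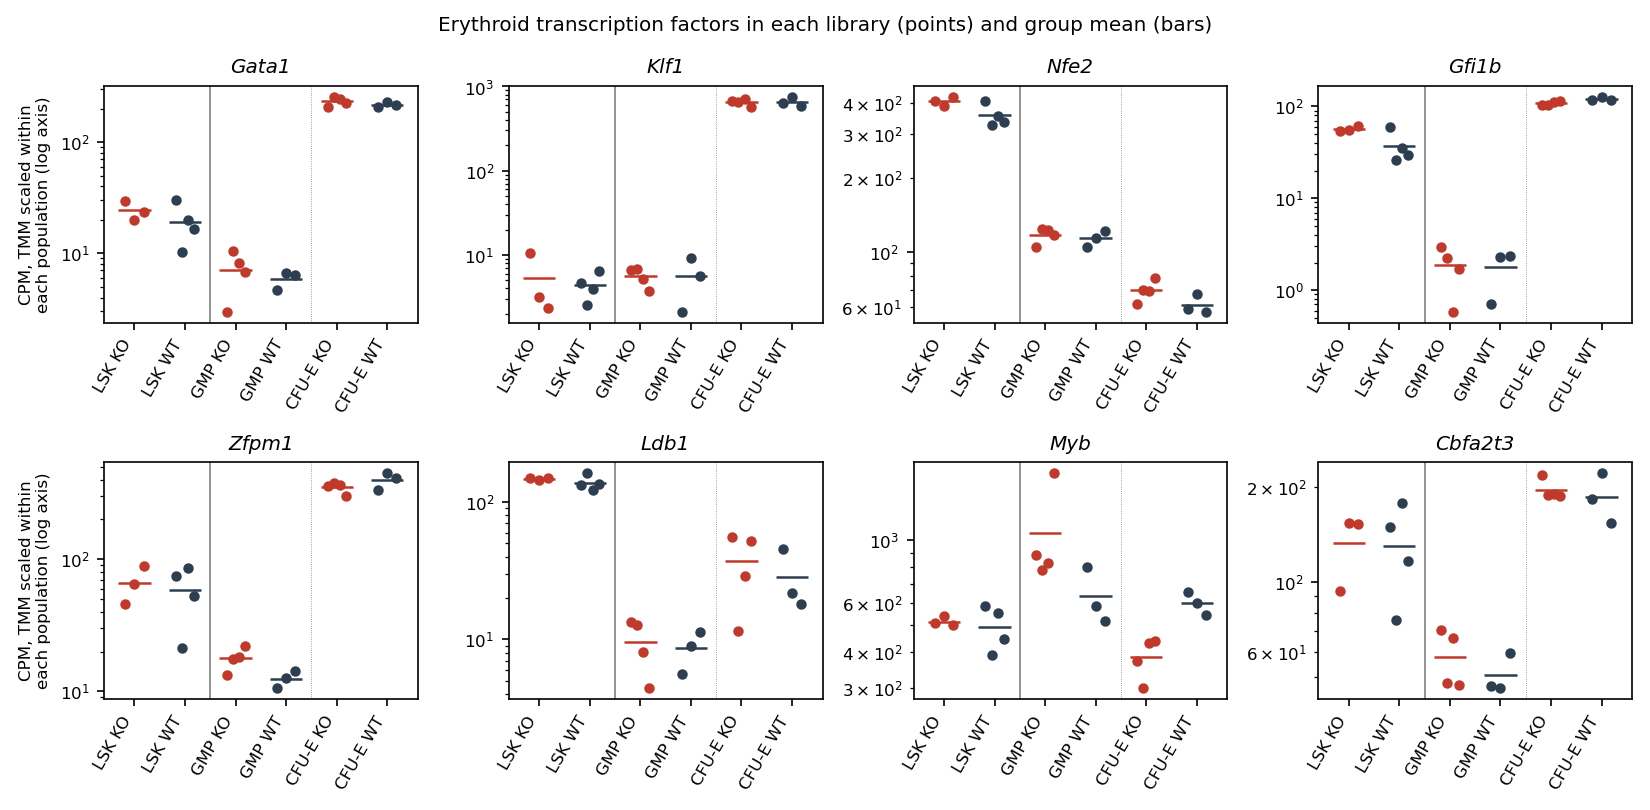
Level of each of the 8 genes in each of the 21 libraries, in CPM on log axes, with KO left of WT in each population. Points are libraries and bars are group means. A solid line sets off LSK, whose kit differs. Gata1, Klf1, Gfi1b and Zfpm1 stand far higher in CFU-E than in GMP, while KO and WT points overlap in most panels.

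WT CFU-E against WT GMP shows which of the factors mark the erythroid branch. Of the 8 genes, 6 were higher in CFU-E, 1 was lower and 1 did not pass the test (adjusted p under 0.05, edgeR quasi-likelihood test, Benjamini-Hochberg over 10329 genes). Among all genes tested, 52.4% passed, 25% higher and 27.3% lower, so the populations differ widely and a call alone says little. The members' median log2 fold change was 3.06, against 0.03 over all genes tested, where higher and lower genes offset each other. By absolute log2 fold change, Klf1, Gfi1b, Gata1 and Zfpm1 stood at percentiles 96.56, 95.07, 93.25 and 92.73 of all genes tested. Cbfa2t3, Ldb1, Nfe2 and Myb stood at 75.54, 72.29, 70.5 and 35.46. In bulk RNA, fewer cells of a type and less RNA per cell cannot be told apart.

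Gata1 had 172.2, 199.7 and 181 CPM in CFU-E WT, against 5.24, 7.33 and 6.87 CPM in GMP WT. Every CFU-E library stood far above every GMP library, and the difference was 28.5-fold (log2 4.83 ± 0.248 SE, adjusted p = 1.3e-12 with edgeR). Its cofactor Zfpm1 had 275.4, 390.5 and 348 CPM in CFU-E WT, against 11.8, 14.02 and 15.5 CPM in GMP WT. That is 24.6-fold (log2 4.62 ± 0.240 SE, adjusted p = 1.5e-12 with edgeR), close to the fold of Gata1. The adaptor Ldb1 had 37.4, 19.0 and 15.4 CPM in CFU-E WT, against 6.28, 9.88 and 12.3 CPM in GMP WT. The groups were separate but near each other, with Ldb1 2.53-fold higher (log2 1.34 ± 0.348 SE, adjusted p = 0.00282 with edgeR). Of these 3 genes, Ldb1, which works in many tissues, had the smallest fold.

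Klf1 had 525.4, 659 and 502.6 CPM in CFU-E WT, against 2.36, 10.2 and 6.01 CPM in GMP WT. It had the largest fold of the 8, 92.7-fold (log2 6.53 ± 0.343 SE, adjusted p = 1.7e-12 with edgeR), and its GMP counts were only 9 to 32 reads. Nfe2 went the other way, with 49.0, 59.0 and 48.6 CPM in CFU-E WT, against 117.5, 126.1 and 131.7 CPM in GMP WT. It was 2.396-fold lower in CFU-E (log2 −1.26 ± 0.199 SE, adjusted p = 1.8e-05 with edgeR), and the groups did not overlap.

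Gfi1b, the repressor of the erythroid and platelet lines, had 98.1, 111 and 98.7 CPM in CFU-E WT, against 0.785, 2.55 and 2.58 CPM in GMP WT. Its GMP level rested on 3, 8 and 9 reads, and the fitted difference was 52.5-fold (log2 5.72 ± 0.323 SE, adjusted p = 5.4e-12 with edgeR). Its paralog Gfi1, the myeloid counterpart, had the opposite pattern, at 0.501 ± 0.329 CPM in CFU-E WT and 214.9 ± 18.3 CPM in GMP WT (SD, n = 3 each). The corepressor Cbfa2t3 had 151.3, 193.2 and 130.3 CPM in CFU-E WT, against 52.4, 51.0 and 64.4 CPM in GMP WT. It was 2.83-fold higher in CFU-E (log2 1.501 ± 0.213 SE, adjusted p = 4.9e-06 with edgeR), with no overlap.

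Myb had 543.1, 523.2 and 457.9 CPM in CFU-E WT, against 895.3, 644.4 and 558.8 CPM in GMP WT. All 3 CFU-E libraries were below all 3 GMP libraries, yet the difference did not pass the test (log2 −0.46 ± 0.207 SE, 95% interval −0.89 to −0.03, adjusted p = 0.0681 with edgeR). DESeq2 placed it past the threshold (log2 −0.51, adjusted p = 0.0351), as did DESeq2 size factors in edgeR (adjusted p = 0.0433) and edgeR without GMP WT 3 (log2 −0.60, adjusted p = 0.0133). Over all alternatives its adjusted p was 0.0133 to 0.23. All 8 members had groups that did not overlap, 6 higher and 2 lower, where 59.8% of all genes tested did not overlap. Leaving out any 1 library ended none of the other 7 calls, though without CFU-E WT 1 the log2 fold change of Ldb1 was 0.88 (adjusted p = 0.0454).

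**Figure D2:**
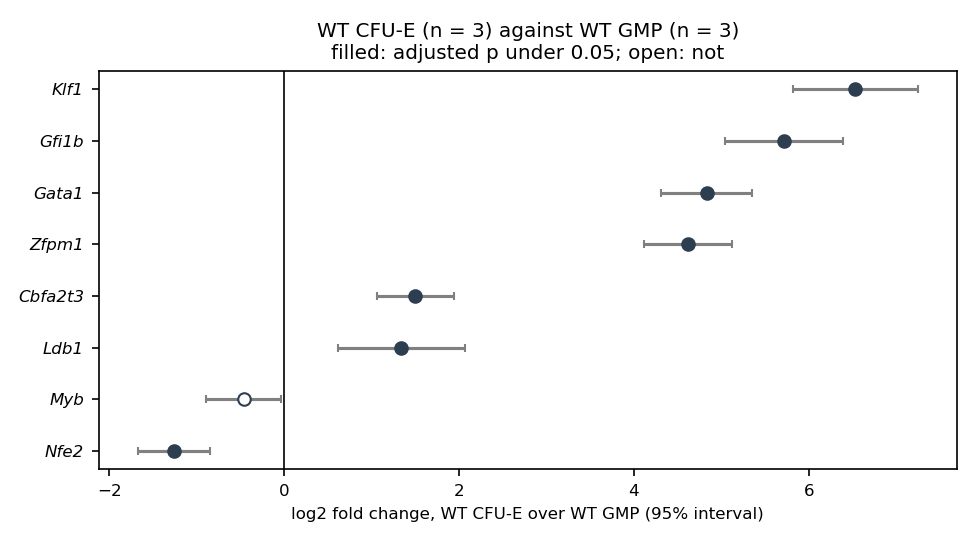
Log2 fold change of WT CFU-E (n = 3) over WT GMP (n = 3) for each gene, with 95% intervals. Filled points passed adjusted p under 0.05. Klf1, Gfi1b, Gata1 and Zfpm1 form an upper set from 4.62 to 6.53, Cbfa2t3 and Ldb1 lie at 1.501 and 1.34, and Nfe2 lies at −1.26.

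The genes that work with these factors were counted in lists. For WT CFU-E against WT GMP these counts stand beside the 52.4% of all genes tested that passed, 25% higher and 27.3% lower. Of 23 partners of the GATA1 complex and other erythroid factors, 16 were higher in CFU-E WT than in GMP WT, 6 were lower and 1 did not pass (median log2 0.97, against 0.03 for all genes). Nfia, a factor of early erythroid commitment, was 340.1 ± 35.2 CPM in CFU-E WT and 8.63 ± 1.75 CPM in GMP WT. Tal1, the E-box partner of GATA1, was 407 ± 29.3 CPM in CFU-E WT and 32.2 ± 7.80 CPM in GMP WT. Spi1 (PU.1), listed under its older symbol Sfpi1 and an antagonist of GATA1, was 1.51 ± 0.130 CPM in CFU-E WT and 246.5 ± 26.8 CPM in GMP WT (SD, n = 3 each). These 3 had adjusted p of 3.4e-13, 2.1e-11 and 3.7e-14 with edgeR.

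Of 7 partners and competitors of NFE2, 2 were higher in CFU-E WT, 3 were lower and 2 did not pass, with a median log2 of −0.16. Bach1, a repressor that binds the same sites, was 25.0 ± 2.78 CPM in CFU-E WT and 68.6 ± 21.8 CPM in GMP WT. The small MAF gene Mafg was 111 ± 6.95 CPM in CFU-E WT and 206.8 ± 33.3 CPM in GMP WT, and Maff was 0.396 ± 0.0594 CPM in CFU-E WT and 4.15 ± 0.570 CPM in GMP WT (SD, n = 3 each). These 3 are the lower genes of the list. The 2 higher ones, named after their values were seen, were Mafk, another small MAF gene, at 5.64 ± 1.83 CPM in CFU-E WT and 2.10 ± 1.78 CPM in GMP WT, and Bach2, a relative of Bach1, at 3.68 ± 1.03 CPM in CFU-E WT and 1.395 ± 0.854 CPM in GMP WT (SD, n = 3 each). A list of 15 genes held corepressors of GFI1B and CBFA2T3 and their relatives. Of these, 5 were higher, 1 was lower and 9 did not pass, where 52.4% of all genes tested passed, so this list did not stand out. The lower one was Gfi1, which is the DNA-binding paralog described above and not a corepressor. Mbd2, of the NuRD complex, was 3.11-fold higher and Rcor1, which joins GFI1B to the demethylase KDM1A, was 1.98-fold higher, while Kdm1a was 36.5 ± 7.32 CPM in CFU-E WT and 36.7 ± 5.97 CPM in GMP WT.

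Of 35 erythroid genes known to lie under GATA1 and KLF1, 32 were tested, and 30 were higher in CFU-E WT and 2 lower (median log2 4.33). The membrane protein gene Ermap was 716.9 ± 38.0 CPM in CFU-E WT and 11.96 ± 1.46 CPM in GMP WT. Cldn13 was 62.3-fold and Tspo2 78.8-fold higher. The 2 lower genes were Xpo7, a nuclear exporter, at 3.74-fold, and Bcl2l1, the survival factor BCL-XL, at 2.96-fold.

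KO against WT asks whether loss of Stag2 alters these factors within a population. In LSK cells, 0 of the 8 genes passed, where 0.0793% of 17664 genes passed. At an unadjusted p under 0.05, edgeR called 1 of the 8, Gfi1b, and 1392 of all 17664 genes. DESeq2 called 0 of the 8 after adjustment. All 8 fold changes were above 0, with a median of 0.18 on the log2 scale against 0.00445 over all genes, and KO and WT libraries overlapped for every member (7.89% of all genes did not overlap).

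Gfi1b had the largest difference of the 8 in LSK. It was 54.2, 54.6 and 61.7 CPM in LSK KO 1 to 3, against 59.0, 26.0, 35.2 and 29.2 CPM in LSK WT 1 to 4. The KO libraries lay together, and only LSK WT 1 reached them. The log2 fold change was 0.60 ± 0.261 SE (95% interval 0.01 to 1.198, adjusted p = 0.624 with edgeR). Without LSK WT 1 it was 0.91 (adjusted p = 0.0419), which placed it past the threshold. Leaving out that library also raised the genes called over all genes tested from 14 to 123. Without LSK WT 2 and WT 4 the log2 fold change of Gfi1b was 0.29. The 10 megakaryocyte and platelet markers summed to 521 to 543 CPM in LSK KO, against 283 to 455 CPM in LSK WT. Of the 9 tested, 5 fold changes were above 0 and 4 below (median log2 0.56), and 0 passed the threshold. Their part in the Gfi1b values was not tested. B cell markers also differed, at 70.0 to 131.3 CPM in sum in LSK KO and 104 to 283.9 CPM in LSK WT, with 0 of 8 past the threshold. Among the other lists, the 13 erythroid markers summed to 886.3 to 1359 CPM in LSK KO and 659.2 to 1093 CPM in LSK WT. Of the 9 of them tested, however, 7 fold changes were below 0 and 2 above (median log2 −0.23). The 11 granulocyte and monocyte markers summed to 5956 to 16460 CPM in LSK KO and 11040 to 19000 CPM in LSK WT, with 10 of 11 fold changes below 0 (median log2 −0.75). The 11 mast cell, basophil and eosinophil markers summed to 262.5 to 488.1 CPM in LSK KO and 206.6 to 768.5 CPM in LSK WT, with a median log2 of −0.97. None of the markers in these lists passed the threshold, and their part was not tested either.

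Gata1 was 29.8, 19.7 and 23.7 CPM in LSK KO, against 30.4, 10.2, 19.9 and 16.5 CPM in LSK WT (log2 0.34 ± 0.329 SE, adjusted p = 0.886 with edgeR). Its highest values came from LSK KO 1 and LSK WT 1, and the lowest from LSK WT 2. Klf1 was 10.4, 3.16 and 2.34 CPM in LSK KO, against 4.70, 2.54, 3.89 and 6.38 CPM in LSK WT. LSK KO 1 alone set its direction, since the log2 fold change was 0.28 ± 0.523 SE with that library and −0.67 without it. Zfpm1 ranged over 45.5 to 89.6 CPM in LSK KO and 21.4 to 86.1 CPM in LSK WT, and Cbfa2t3 over 93.7 to 153.5 CPM in LSK KO and 75.8 to 178 CPM in LSK WT. Both spread widely inside each genotype, with log2 fold changes of 0.18 ± 0.420 and 0.04 ± 0.289 (SE).

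Nfe2, Ldb1 and Myb were steadier in the LSK KO libraries, with coefficients of variation of 4.50%, 1.48% and 3.71%. Nfe2 was 387.4 to 423.9 CPM in LSK KO and 326.4 to 408.7 CPM in LSK WT (log2 0.19 ± 0.126 SE, 95% interval −0.10 to 0.47). Ldb1 was 145.6 to 149.8 CPM in LSK KO and 121.4 to 162.1 CPM in LSK WT, and Myb was 499.2 to 535.4 CPM in LSK KO and 390 to 582.5 CPM in LSK WT. One library ran through the WT values: LSK WT 2 was the lowest of the 4 for Gata1, Klf1, Nfe2, Gfi1b, Zfpm1, Myb and Cbfa2t3, and the highest for Ldb1. Without LSK WT 2 and WT 4, which earlier results of these data had set apart, the log2 fold changes of Gata1, Zfpm1, Myb and Cbfa2t3 were −0.02, −0.27, −0.13 and −0.29.

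**Figure D3:**
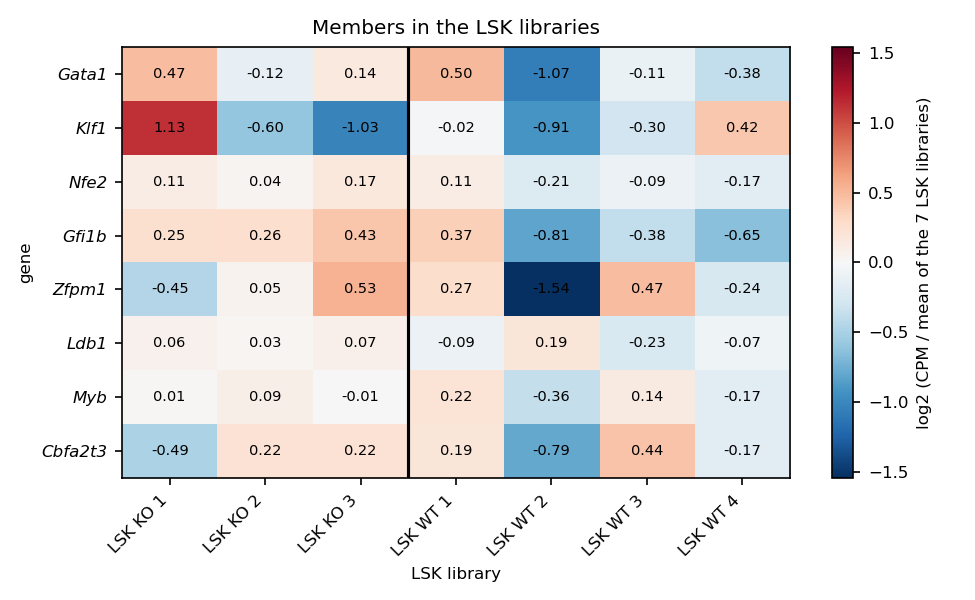
Each gene (rows) in each LSK library (columns), KO left of the line and WT right of it, as log2 of CPM over the mean of the 7 LSK libraries. LSK WT 2 is below the mean for every gene except Ldb1, at −1.54 for Zfpm1 and −1.07 for Gata1, and LSK KO 1 is high for Klf1, at 1.13.

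Reads at some of these loci may be shared. Gm20388 overlaps Zfpm1 on its strand and Cbfa2t3 on the other, Pprc1 overlaps Ldb1 on the opposite strand, and Gm26577, which has no row, overlaps Myb on the opposite strand, per the annotation of another build. The sources used here do not give the strand setting of the counting, so antisense reads cannot be told apart. Gm20388 held 3717 to 4401 counts in LSK KO and 2392 to 5489 in LSK WT, and 0 in every GMP and CFU-E library. Pprc1 held 3622 to 4288 counts in LSK KO and 1467 to 5044 in LSK WT, 48 to 168 in GMP KO and 80 to 129 in GMP WT, and 347 to 478 in CFU-E KO and 389 to 562 in CFU-E WT. In each GMP and CFU-E group these ranges lie above those of Ldb1, which had 13 to 45 counts in GMP KO, 24 to 43 in GMP WT, 62 to 274 in CFU-E KO and 67 to 192 in CFU-E WT. The LSK values of Zfpm1 and Cbfa2t3, and the Ldb1 values in all 3 populations, are uncertain to that extent, including its difference between CFU-E and GMP and its scatter in CFU-E.

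In GMP, 0 of the 7 genes tested passed, where 1.45% of 9969 genes passed. At an unadjusted p under 0.05, edgeR called 1 of the 7, Myb, and 1789 of all 9969 genes. DESeq2 called 0 of the 7 after adjustment. Gfi1b, at 2 to 8 reads in GMP KO and 3 to 9 reads in GMP WT, fell under the low-count filter and was not tested. No member's KO and WT libraries were separate, where 15.8% of all genes were.

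Myb was 884.4, 782.3, 827.9 and 1721 CPM in GMP KO 1 to 4, against 800.9, 581.3 and 516.8 CPM in GMP WT 1 to 3. GMP KO 4 stood far above the other KO libraries, and KO 2 lay below WT 1. The log2 fold change was 0.74 ± 0.290 SE (95% interval 0.12 to 1.35, adjusted p = 0.213 with edgeR), and it was 0.41 (adjusted p = 0.351) without GMP KO 4. In the same library the 10 stem and multipotent progenitor markers summed to 565.2 CPM, the highest in GMP, with 261.6 to 565.2 CPM over the KO libraries and 247.7 to 265.3 CPM over the WT libraries. Its 11 granulocyte and monocyte markers summed to 22700 CPM, the lowest in GMP. None of the 7 and 11 markers tested passed the threshold between KO and WT, and their part in the Myb value was not tested.

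Zfpm1 was 13.4, 17.7, 18.3 and 22.0 CPM in GMP KO, against 10.5, 12.6 and 14.3 CPM in GMP WT. Only GMP KO 1, the shallowest library, fell within the WT range (log2 0.54 ± 0.272 SE, 95% interval −0.04 to 1.11, adjusted p = 0.31 with edgeR). Gata1 was 2.97, 10.4, 8.15 and 6.77 CPM in GMP KO, against 4.68, 6.61 and 6.36 CPM in GMP WT, from 4 to 37 reads a library. At this depth its interval, −0.48 to 1.17 on the log2 scale, spans both directions. Klf1 was 3.72 to 6.75 CPM in GMP KO and 2.11 to 9.20 CPM in GMP WT, with a log2 fold change of −0.01 ± 0.465 SE. Nfe2, the member that was lower in CFU-E WT than in GMP WT, was 104.8 to 124.3 CPM in GMP KO and 105.1 to 121.9 CPM in GMP WT (log2 0.05 ± 0.201 SE, 95% interval −0.38 to 0.47). Ldb1 was 4.40 to 13.4 CPM in GMP KO and 5.62 to 11.4 CPM in GMP WT, and Cbfa2t3 was 47.0 to 70.6 CPM in GMP KO and 46.0 to 59.6 CPM in GMP WT.

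In CFU-E, the population committed to the erythroid line, 0 of the 8 genes passed, where 1.06% of 10170 genes passed. At an unadjusted p under 0.05, edgeR called 1 of the 8, Myb, and 999 of all 10170 genes, while DESeq2 called Myb after adjustment. The CFU-E libraries ran on 2 flow cells, here A (KO 1, WT 1 and WT 2) and B (KO 2, KO 3, KO 4 and WT 3), and the fit carries a flow cell term. Of the 8 members 2 had KO and WT libraries that did not overlap, both lower in KO, where 11.8% of all genes did not overlap and 5.66% did so with KO lower.

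Myb was 371.6, 298, 432.8 and 437.1 CPM in CFU-E KO 1 to 4, against 656.1, 599.1 and 540.8 CPM in CFU-E WT 1 to 3. The highest KO library was below the lowest WT library on either flow cell. The log2 fold change was −0.61 ± 0.171 SE, 1.52-fold lower in KO (95% interval −0.98 to −0.24) and an adjusted p of 0.144 with edgeR. Within flow cell A, with 1 KO library, it was −0.77 (adjusted p = 0.11), and within flow cell B, with 1 WT library, −0.48 (adjusted p = 0.399), both on the assumption that the lone library varies like the others. The call depends on the fit: Myb passed without the flow cell term (log2 −0.64, adjusted p = 0.0323), with DESeq2 (−0.615, adjusted p = 0.0386) and with no low-count filter (−0.60, adjusted p = 0.0236), and over all alternatives the adjusted p was 0.0236 to 0.604.

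Gata1 was 208.4, 255.4, 242.2 and 226.4 CPM in CFU-E KO, against 208, 228.6 and 213.7 CPM in CFU-E WT. The ranges overlapped, and the log2 fold change was 0.06 ± 0.140 SE (95% interval −0.24 to 0.36, adjusted p = 0.94 with edgeR). Klf1 was 675.6, 649.8, 710 and 572.3 CPM in CFU-E KO, against 634.7, 754.5 and 593.5 CPM in CFU-E WT. Its log2 fold change was 0.04 ± 0.148 SE (95% interval −0.28 to 0.36, adjusted p = 0.96 with edgeR). In folds, these intervals were 0.846 to 1.28 for Gata1 and 0.826 to 1.29 for Klf1.

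Zfpm1 was 359, 374.1, 363.9 and 299 CPM in CFU-E KO, against 332.7, 447.1 and 410.9 CPM in CFU-E WT (log2 −0.19 ± 0.156 SE, adjusted p = 0.77 with edgeR). Gfi1b was 103.8, 103.1, 110.8 and 113.6 CPM in CFU-E KO, against 118.5, 127 and 116.6 CPM in CFU-E WT. The groups were separate, but by little: the log2 fold change was −0.17 ± 0.140 SE (95% interval −0.47 to 0.14, adjusted p = 0.779 with edgeR). Gfi1b was also the least scattered member, with a coefficient of variation of 4.80% in CFU-E KO and 4.61% in CFU-E WT, near the 4.44% and 4.35% that counting error alone gives.

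Ldb1 was the most scattered. It was 55.9, 11.6, 29.1 and 52.4 CPM in CFU-E KO, against 45.2, 21.8 and 18.1 CPM in CFU-E WT, a coefficient of variation of 55.9% in KO and 51.8% in WT, where counting error gives 7.70% and 8.99%. High and low libraries occurred in both genotypes and on both flow cells, and the log2 fold change was 0.75 ± 0.422 SE (95% interval −0.16 to 1.66, adjusted p = 0.6246 with edgeR). Without a low-count filter its adjusted p was 0.0489. Nfe2 was 62.0 to 78.2 CPM in CFU-E KO and 57.4 to 67.5 CPM in CFU-E WT (log2 0.16 ± 0.165 SE). Cbfa2t3 was 187 to 218.1 CPM in CFU-E KO and 153.9 to 221.2 CPM in CFU-E WT (log2 0.21 ± 0.141 SE).

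**Figure D4:**
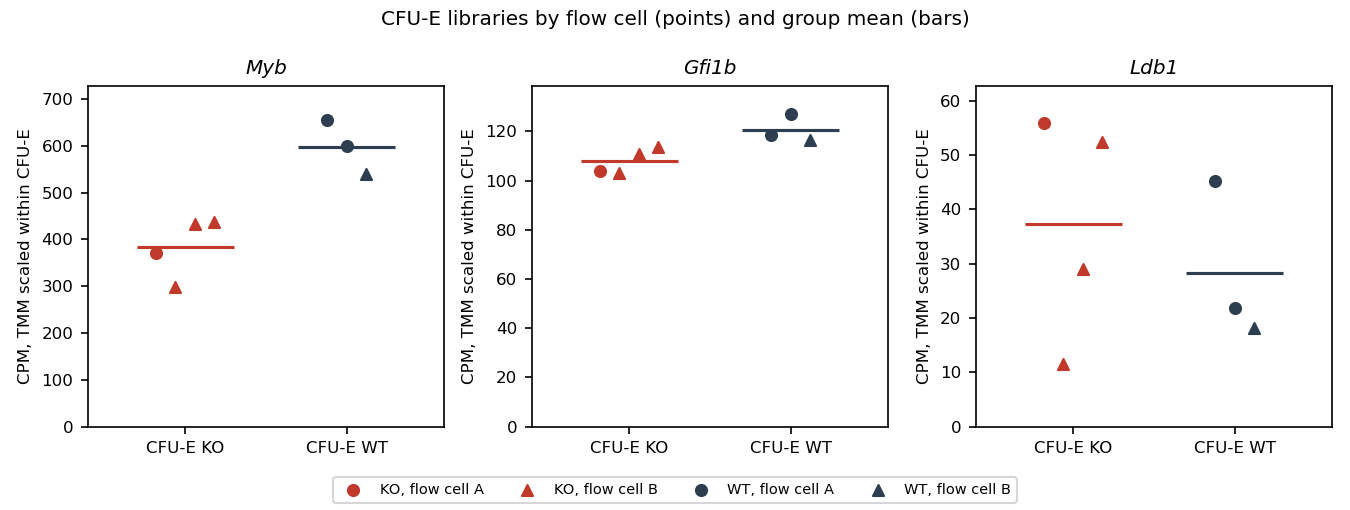
CPM of Myb, Gfi1b and Ldb1 in the CFU-E libraries, KO left and WT right, with circles for flow cell A, triangles for flow cell B and bars for group means. The Myb points of KO, 298 to 437.1 CPM, all lie below those of WT, 540.8 to 656.1 CPM, and the Ldb1 points of KO and WT are mixed.

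Other cell markers moved in CFU-E KO. Of 9 megakaryocyte and platelet markers tested, 4 were higher in KO (Itgb3, Ppbp, Itga2b and Gp5) and 0 lower, and the 10 in the list summed to 536 to 1161 CPM in CFU-E KO, against 158 to 345 CPM in CFU-E WT. Itga2b, the platelet integrin CD41, was 168 ± 61.3 CPM in CFU-E KO (SD, n = 4) and 54.9 ± 16.04 CPM in CFU-E WT (SD, n = 3), with an adjusted p of 0.0163 with edgeR. Of 12 erythroid markers tested, 1 was lower, Hbb-b1, the adult beta globin, at 115.3 ± 19.6 CPM in CFU-E KO (SD, n = 4) and 308.5 ± 55.2 CPM in CFU-E WT (SD, n = 3), with an adjusted p of 0.00113 with edgeR. The sum of the 13 erythroid markers was higher in KO, at 7845 to 8400 CPM in CFU-E KO and 6998 to 7791 CPM in CFU-E WT. Of the 12 tested, however, 8 fold changes were below 0 and 4 above, with a median log2 of −0.09. The 10 stem and multipotent progenitor markers summed to 230.8 to 260.7 CPM in CFU-E KO, against 173.4 to 193.7 CPM in CFU-E WT, with 0 of 7 tested past the threshold. The 8 B cell markers summed to 3.51 to 4.79 CPM in CFU-E KO, against 9.14 to 16.2 CPM in CFU-E WT, with 0 of 1 tested past it. The globin genes include near-identical copies, so the split of reads among them is uncertain. The part of these markers in the values of Gata1, Nfe2, Zfpm1, Gfi1b and Myb was not tested.

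None of the listed pathway genes passed between KO and WT in LSK or CFU-E, where 0.0793% and 1.06% of all genes tested passed. In CFU-E that was 0 of 22 GATA1 partners, 0 of 6 NFE2 partners, 0 of 14 corepressors and relatives and 0 of 32 erythroid genes, with medians of 0.05, −0.07, −0.04 and −0.03 on the log2 scale against 0.00425 over all genes. In LSK it was 0 of 23, 0 of 7, 0 of 15 and 0 of 31, with medians of 0.22, 0.15, 0.16 and −0.17. In GMP 1 gene passed among 69 tested in the 4 lists, where 1.45% of all genes tested passed, so the lists did not stand out. That gene, Bcl2l1, was 14.4 ± 3.79 CPM in GMP KO (SD, n = 4) and 50.1 ± 8.71 CPM in GMP WT (SD, n = 3), 3.56-fold lower (adjusted p = 0.00144 with edgeR).

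**Figure D5:**
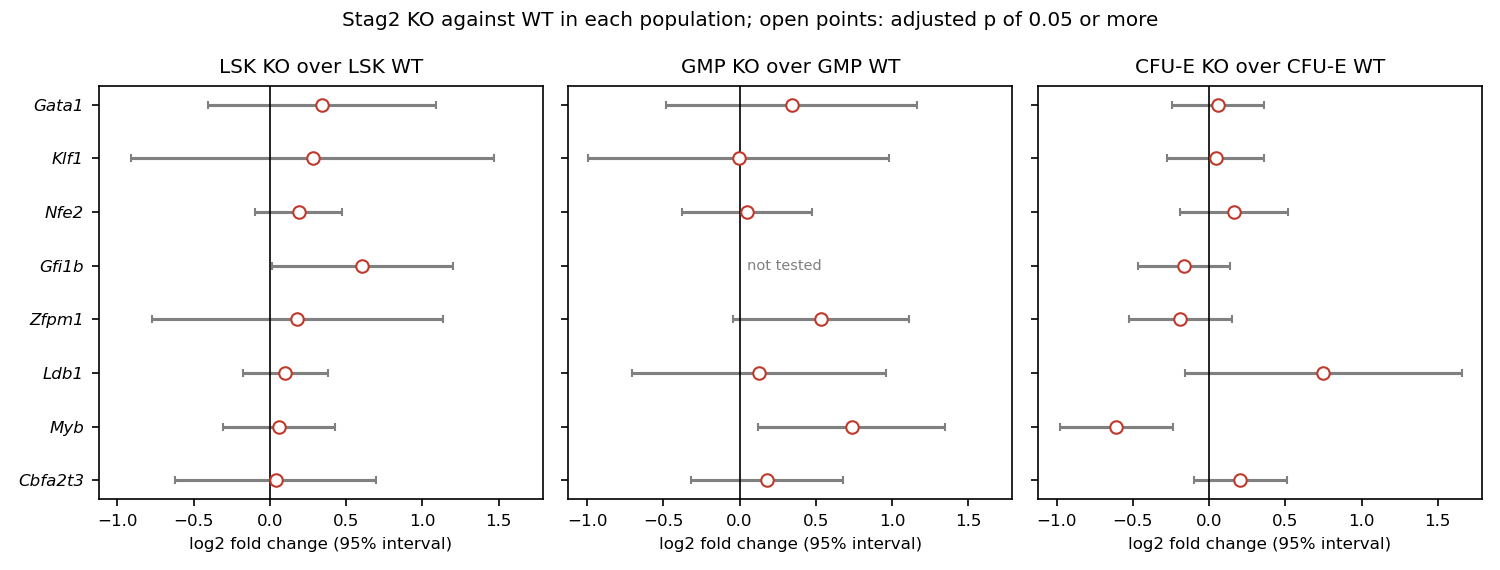
Log2 fold change of Stag2 KO over WT in LSK, GMP and CFU-E, left to right, with 95% intervals. All points are open because none passed adjusted p under 0.05. Myb lies at 0.74 in GMP and −0.61 in CFU-E, Gfi1b at 0.60 in LSK, and Gfi1b was not tested in GMP.

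Whether a KO effect differed between populations was tested directly. For CFU-E minus GMP, 0 of 8 members passed, where 0.445% of 11006 genes passed. Gfi1b, at 2 to 8 reads in GMP KO and 3 to 9 in GMP WT, entered the comparisons with GMP through its counts in the other population. Its KO effect in GMP was hardly measured, with an SE of 0.560 for CFU-E minus GMP and 0.628 for LSK minus GMP. Those tests could therefore say little about Gfi1b. The Myb effect differed by −1.25 ± 0.363 SE on the log2 scale (adjusted p = 0.157 with edgeR), and that of Zfpm1 by −0.65 ± 0.297 SE (adjusted p = 0.346). Both had a lower KO effect in CFU-E than in GMP. Without GMP KO 4 the Myb difference was −0.94 (adjusted p = 0.139), and with no low-count filter it passed, at −1.27 (adjusted p = 0.0206). Among the 77 listed pathway genes tested, 1 passed: Bcl2l1, with an effect higher by 1.81 ± 0.365 SE in CFU-E (adjusted p = 0.0249 with edgeR). For LSK minus CFU-E, 0 of 8 passed, where 0.0425% of 16474 genes passed. The effects of Gfi1b and Myb differed by 0.72 ± 0.311 SE and 0.62 ± 0.240 SE, with adjusted p of 0.631 and 0.5678 with edgeR. For LSK minus GMP, 0 of 8 members and 0 of 16288 genes passed, 0% in all, while 1732 genes had an unadjusted p under 0.05. Kit and sex also differ between LSK and the populations it was compared with, so these cannot be told apart from population here.

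The genes whose levels followed 3 of the factors most closely were found among 8417 genes, by the distance between centred log2 profiles over the 4 GMP and CFU-E groups. This is a description over 4 group means. Nearest to Gata1 were Nckap1, Ppm1l and Zg16, at distances of 0.18, 0.20 and 0.29. Nckap1, at 0.434 CPM in GMP KO and 0.476 CPM in GMP WT, and Zg16, at 0.591 CPM in GMP KO and 0.410 CPM in GMP WT, are near the pseudocount of 0.5 CPM, so that their distances depend on it. Nearest to Klf1 were Kel, which encodes the Kell blood group protein, a row listed as 8-Sep, and Abcb4, at 0.14, 0.17 and 0.22. Nearest to Myb were Tgfbr1, a receptor for TGF-beta, Gcfc1 and Pdxdc1, at 0.14, 0.17 and 0.19. The GMP KO mean of Myb includes GMP KO 4, at 1721 CPM on the scale within GMP, against 782.3 to 884.4 CPM in KO 1 to 3. Likeness without that library was not tested. Kel averaged 186.5 CPM in CFU-E KO, 197.2 CPM in CFU-E WT, 1.47 CPM in GMP KO and 1.88 CPM in GMP WT, on a scale over the 14 libraries.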

How the data were processed

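RNA was measured in 21 libraries and deposited by the authors as whole-number counts per gene, not normalized, for 30733 genes. STAR 2.4, HTSeq 0.6.1, DESeq2 and the build mm9 are named, per the submitters' processing notes. The sources used here do not give the annotation or strand setting. The 8 members and all lists were chosen with earlier results of these data known. The fixed rule named the 8 members, Stag2, up to 3 called genes with the smallest p from each of 4 pathway lists, and the 3 genes most like Gata1, Klf1 and Myb.

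Each comparison was fitted over all genes with edgeR 4.0.16 in R 4.3.3: filterByExpr (minimum count 10, minimum total 15), TMM factors and quasi-likelihood F tests, adjusted by Benjamini-Hochberg and called at an adjusted p under 0.05. SE is the log2 fold change over the square root of F. KO was compared with WT within a population, with a flow cell term in CFU-E. Differences of KO effects were tested as interactions. The procedure was tested on simulated data. Alternatives were DESeq2 1.42.0, its size factors, no and stricter filters (minimum count 30), thinning, a replicate block, and leaving out libraries. Likeness used a pseudocount of 0.5 CPM and a minimum mean of 5 CPM. Totals of 1250683 to 32196233 counts set the precision, so GMP values of a few reads carry large counting error. Every pair of libraries within a group differed by more than sampling noise.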

Additional observations from a re-analysis of the deposited data

Results flagged for a closer look

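Each of the 8 members was checked in the groups of 4 libraries (LSK WT, GMP KO and CFU-E KO), 24 checks in all. In 2 of them a library lay far from the other 3, by the gap to the nearest library over the range of the group (above Dixon's 95% critical value). Chance flags about 1 in 20 independent checks, but these share the same libraries and are not independent. Cbfa2t3 in CFU-E KO 1 was 218.1 CPM, the highest of 4, with a gap of 0.91 of the range. CFU-E KO 1 is the single CFU-E KO library on flow cell A. Myb in GMP KO 4 was 1721 CPM, the highest of 4, with a gap of 0.891 of the range. That library also had the highest Stag2 level of the GMP KO libraries, 150.2 CPM.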

How the results depend on the processing

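Of 1092 values under alternatives, 959 kept direction and side of the threshold, 9 newly passed, 52 counts moved by over 1.5 times, and 72 log2 fold changes changed sign, none of them a call in either fit. The cause was not tested in any case. The 7 calls of WT CFU-E against WT GMP held under every alternative run. Genes called in LSK (14) were 38 with no filter, 342 with DESeq2 and 1 without WT 2 and WT 4. In GMP (145) they were 601 with no filter, 92 with the stricter filter, 300 with DESeq2 and 40 after thinning to the shallowest library. In CFU-E (108) they were 333 with no filter, 182 with DESeq2 and 234 with no flow cell term, and members called were 2, 1 and 1. For CFU-E minus GMP (49) they were 254 with no filter, with 1 member, and 81 with no flow cell term, for LSK minus CFU-E (7) 32 and 18, and for LSK minus GMP (0) 12 with no filter. Leaving out 1 library each, genes called ranged 0 to 123 in LSK, with 0 to 1 members, 38 to 211 in GMP, 22 to 143 in CFU-E (22 without WT 3), 2 to 72 for CFU-E minus GMP, 1 to 24 for LSK minus CFU-E and 0 to 8 for LSK minus GMP. Same-numbered libraries did not deviate together in every pair, so the numbers were not taken to pair them. With the replicate block, genes called were 0 in LSK, 325 in GMP, 31 in CFU-E and 0 for LSK minus CFU-E, no member was called in any KO comparison, and signs changed for Klf1 in GMP (0.16), Gfi1b in CFU-E minus GMP (0.083) and Ldb1 in LSK minus GMP (−0.18). Signs also changed in LSK without WT 2 and WT 4 (Gata1 −0.024, Zfpm1 −0.27, Myb −0.13, Cbfa2t3 −0.29), in GMP without KO 1 and KO 4 (Klf1 0.14) and with TMM factors over 14 libraries, an alternative chosen after seeing the data (Nfe2 −0.037), in CFU-E on flow cell A alone (Gata1 −0.084, Klf1 −0.058, Nfe2 −0.049) and without the flow cell term (Klf1 −0.0199), in CFU-E minus GMP without that term (Cbfa2t3 −0.014), and in LSK minus GMP with DESeq2 size factors (Ldb1 −0.0201). Leaving out 1 library changed signs within these log2 ranges. In LSK they were Klf1 −0.67 to 0.64, Zfpm1 −0.11 to 0.42, Myb −0.045 to 0.15, Cbfa2t3 −0.16 to 0.24. In GMP they were Klf1 −0.42 to 0.53, Nfe2 −0.011 to 0.11, Ldb1 −0.12 to 0.39. In CFU-E they were Gata1 −0.071 to 0.17, Klf1 −0.045 to 0.11, Nfe2 −0.036 to 0.34. For CFU-E minus GMP they were Gata1 −0.46 to 0.011, Klf1 −0.42 to 0.55, Nfe2 −0.096 to 0.34, Gfi1b −0.39 to 0.39, Cbfa2t3 −0.085 to 0.20. For LSK minus CFU-E they were Klf1 −0.79 to 0.55, Nfe2 −0.25 to 0.23. For LSK minus GMP they were Gata1 −0.18 to 0.32, Klf1 −0.68 to 0.79, Ldb1 −0.22 to 0.31, Cbfa2t3 −0.29 to 0.076. Where 1 library was left out, groups still held 2 or more. In GMP, Gata1, Klf1, Gfi1b and Ldb1 rest on 2 to 45 reads a library, and Gfi1b was not tested there. Counting error is not the only limit: in GMP KO the coefficient of variation was 44.1% for Gata1 and 43.5% for Ldb1, where counting error gives 21.2% and 19.6%.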
